A study of Mus musculus with 6 samples.

Results

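Histone-modifying and DNA-methylating enzymes place, remove or oxidise the chemical marks of chromatin, and 77 of the 18193 genes measured on these arrays belonged to the families described here. They were chosen by gene symbol alone, as the numbered members of the Dnmt, Tet, Kmt, Setd, Ezh, Kdm, Prmt, Kat, Hdac and Sirt families, and no measured value entered the choice. The 77 comprised 4 DNA methyltransferases, 3 Tet dioxygenases, 18 lysine methyltransferases (Kmt, Setd and Ezh), 18 lysine demethylases (Kdm), 8 arginine methyltransferases (Prmt), 8 lysine acetyltransferases (Kat), 11 zinc-dependent deacetylases (Hdac) and 7 sirtuins. Enzymes whose symbols lie outside these families, such as Carm1 or Ep300, were followed through partner lists.

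DNA methyltransferases add a methyl group to cytosine, and Tet enzymes oxidise it as a step toward its removal. Dnmt1 copies existing methylation onto the new strand after replication, with Uhrf1 as its guide, whereas Dnmt3a and Dnmt3b set methylation at new sites. Methylation of histone lysines and arginines and acetylation of lysines are set and erased by separate families, and several of these enzymes, among them Dnmt3a, Tet2, Ezh2 and Kmt2a, are known regulators of blood stem and progenitor cells.

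RNA came from cultured bone marrow cells of C57BL/6 mice, and all 3 groups had received the growth factor GM-CSF. GM-MPP were multipotent progenitors grown with stem cell cytokines plus GM-CSF. GM-DC were dendritic cells, which take up antigen and show it to T cells, derived from GM-MPP with GM-CSF. GM-TNFa-DC were derived from them with GM-CSF plus the inflammatory cytokine TNFa. Each group had 2 arrays, titled 1 and 2. Their values were log2 expression levels on which a difference of 1 is 2-fold. Whether arrays 1 and 2 were separate cultures or animals is not in the labels, and the p-values below therefore rest on a spread that may be technical.

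Most markers of the labelled cell types separated the groups. Across 16 dendritic cell markers the median level was 4.39 and 4.34 in GM-MPP, against 9.50 to 11.73 on the 4 dendritic cell arrays. All 16 were higher on average in each comparison with GM-MPP. By the test described below, 12 were called higher in each (1.87% and 2.77% of all genes). Of 10 measured progenitor markers, 9 were lower on average in each comparison. Called lower were 6 in GM-DC and 7 in GM-TNFa-DC (2.63% and 4.26% of all genes). The exceptions were Kit in GM-DC (log2 change 0.17) and Mycn in GM-TNFa-DC (0.12), both named after their values were seen. Neutrophil markers were also brightest in GM-MPP: the median level of 11 was 12.29 and 13.05 there, against 6.18 to 8.05 on the dendritic cell arrays. Macrophage markers were brighter in sum on the dendritic cell arrays: the summed linear level of 15 was 10252 and 18853 in GM-MPP against 28305 to 44250. Of the 15, 3 were called higher in each comparison and 1 was called lower in GM-TNFa-DC. The list was split: 4 were at least 2-fold lower on both array numbers in either comparison. At least 2-fold higher on both were 6 in GM-DC and 5 in GM-TNFa-DC. The part of neutrophil and macrophage markers in the enzymes' values was not tested. Among the dendritic cell arrays, number 1 differed from number 2 in both treatments, as described below, and values are therefore given for each array.

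Comparing GM-DC to GM-MPP asks which of the enzymes differed between the progenitors and the dendritic cells derived from them. In GM-DC the arginine methyltransferases Prmt1 and Prmt5 and the deacetylase Hdac2 fell, and the arginine methyltransferase Prmt2 rose. In GM-TNFa-DC the same 4 genes passed the test in the same directions, and the demethylase Kdm4a rose as well. Both comparisons used the same GM-MPP arrays. A gene was called when its limma p-value, adjusted by Benjamini-Hochberg over all 18193 genes, was under 0.05. In GM-DC this held for 1 enzyme higher and 3 lower of 77, against a background of 1.87% of all genes higher and 2.63% lower (4.5% in either direction). In GM-TNFa-DC it held for 2 higher and 3 lower, against 2.77% and 4.26% of all genes (7.03% in either direction). The enzymes' share was near that of all genes in either comparison.

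**Figure D1:**
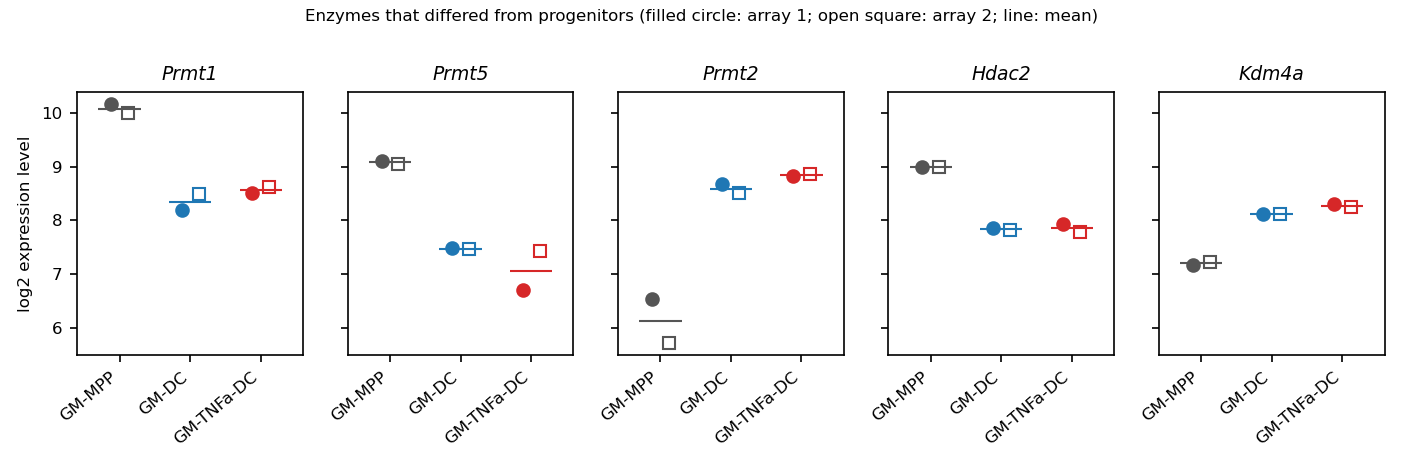
log2 expression level (y axis) of Prmt1, Prmt5, Prmt2, Hdac2 and Kdm4a on the 6 arrays, by group; filled circles are arrays numbered 1, open squares arrays numbered 2, and lines the means of 2 arrays. In each of the 5 genes the dendritic cell arrays lie wholly above or below the GM-MPP arrays. Levels are to be compared within a gene, since probe sets differ in brightness.

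Prmt1 is the main enzyme of asymmetric arginine dimethylation in mammalian cells. Its level on arrays 1 and 2 was 10.16 and 9.99 in GM-MPP, 8.20 and 8.49 in GM-DC and 8.51 and 8.62 in GM-TNFa-DC. Every dendritic cell array lay below both progenitor arrays. The log2 change was -1.73 ± 0.21 (SE) in GM-DC, a 3.32-fold lower level (limma adjusted p = 0.0187), and -1.51 ± 0.21 in GM-TNFa-DC (adjusted p = 0.0209). Prmt5, the main enzyme of symmetric arginine dimethylation, stood at 9.11 and 9.04 in GM-MPP, 7.49 and 7.47 in GM-DC and 6.70 and 7.42 in GM-TNFa-DC. Again the progenitor and dendritic cell arrays did not overlap, and GM-TNFa-DC array 1 was the lowest of the 6. The log2 change was -1.60 ± 0.28 in GM-DC (adjusted p = 0.0422) and -2.01 ± 0.28 in GM-TNFa-DC (adjusted p = 0.0216), or 3.03-fold and 4.04-fold lower.

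Prmt2 is a less active arginine methyltransferase that can also act as a coactivator of nuclear receptors. It went the other way, from 6.53 and 5.73 in GM-MPP to 8.67 and 8.50 in GM-DC and 8.83 and 8.87 in GM-TNFa-DC. The 2 progenitor arrays differed by 0.81, less than the distance of either to any dendritic cell array. The log2 change was 2.46 ± 0.31 in GM-DC (5.49-fold, adjusted p = 0.0197) and 2.72 ± 0.31 in GM-TNFa-DC (6.58-fold, adjusted p = 0.0128). Both of its probe sets were higher in dendritic cells on both array numbers. The values above are from the brighter, an _x_at probe set. With probe sets of that type left out for all genes, the log2 change was smaller. It was 1.70 ± 0.22 in GM-DC and 2.00 ± 0.22 in GM-TNFa-DC (limma adjusted p = 0.0206 and 0.0120).

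Hdac2 is a class I deacetylase of the Sin3, NuRD and CoREST corepressor complexes. Its level was 8.99 and 8.98 in GM-MPP, 7.86 and 7.82 in GM-DC and 7.93 and 7.79 in GM-TNFa-DC. The 4 dendritic cell arrays lay within 0.14 of each other and more than 1 below the progenitors. The log2 change was -1.15 ± 0.19 in GM-DC (2.22-fold lower, adjusted p = 0.0361) and -1.13 ± 0.19 in GM-TNFa-DC (adjusted p = 0.0308). A second probe set was also lower, whereas the third, at levels of 3.39 to 4.15, lay near background, and with the mean of all 3 probe sets the adjusted p was 0.111 and 0.0835. Kdm4a, a demethylase of lysines 9 and 36 of histone H3 in textbook accounts, stood at 7.17 and 7.23 in GM-MPP, 8.12 on both GM-DC arrays and 8.30 and 8.24 in GM-TNFa-DC. The groups did not overlap in either comparison. Its log2 change was 1.07 ± 0.19 in GM-TNFa-DC (adjusted p = 0.0338) and 0.92 ± 0.19 in GM-DC, where it did not pass (adjusted p = 0.0594). With its probe sets averaged, Kdm4a did not pass in GM-TNFa-DC either (adjusted p = 0.117).

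Few of these calls held when an array of the compared groups was left out. The calls of Hdac2 and Kdm4a also needed the arrays of the remaining group, as given below. Leaving out GM-MPP 1, GM-MPP 2, GM-DC 1 or GM-DC 2 left 0 of the 77 enzymes called in GM-DC against GM-MPP, although the log2 change stayed between -1.88 and -1.59 for Prmt1 and between 2.05 and 2.86 for Prmt2. In GM-TNFa-DC against GM-MPP, leaving out GM-MPP 2 or GM-TNFa-DC 1 left 0, leaving out GM-MPP 1 left 1 and leaving out GM-TNFa-DC 2 left 2.

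Promoter windows of the 5 called genes, of which 3 fell and 2 rose, are shown to set those of the lower genes beside those of the higher, and 1 of the 3 windows of Dnmt1 is shown because it holds a match. Each window is 300 bases, 250 before to 50 after an annotated start, from RefSeq on GRCm38.p6, and reads 5′ to 3′ on the gene's strand. Capitals mark the E2F-like strings TTGGCGC and TTCCCGC, sought on both strands (as GCGCCAA and GCGGGAA on the other), which do not overlap each other in these windows. Prmt1 lies at chr7:44986371-44986670 (minus strand), Prmt5 at chr14:54517421-54517720 (minus), Hdac2 at chr10:36974294-36974593 (plus), Prmt2 at chr10:76237816-76238115 (minus), Kdm4a at chr4:118179994-118180293 (minus) and the Dnmt1 window with a match at chr9:20952574-20952873 (minus).
Prmt1: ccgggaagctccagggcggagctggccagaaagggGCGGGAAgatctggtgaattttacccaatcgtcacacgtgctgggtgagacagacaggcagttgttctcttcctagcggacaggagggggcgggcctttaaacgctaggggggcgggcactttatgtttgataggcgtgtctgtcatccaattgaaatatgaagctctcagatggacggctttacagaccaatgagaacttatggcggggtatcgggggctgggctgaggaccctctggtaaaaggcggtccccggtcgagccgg
Prmt5: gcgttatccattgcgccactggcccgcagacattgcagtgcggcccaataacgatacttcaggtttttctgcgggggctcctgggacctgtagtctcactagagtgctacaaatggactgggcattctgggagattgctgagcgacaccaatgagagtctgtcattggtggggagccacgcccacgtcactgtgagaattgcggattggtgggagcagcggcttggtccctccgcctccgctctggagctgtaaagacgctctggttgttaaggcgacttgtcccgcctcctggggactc
Hdac2: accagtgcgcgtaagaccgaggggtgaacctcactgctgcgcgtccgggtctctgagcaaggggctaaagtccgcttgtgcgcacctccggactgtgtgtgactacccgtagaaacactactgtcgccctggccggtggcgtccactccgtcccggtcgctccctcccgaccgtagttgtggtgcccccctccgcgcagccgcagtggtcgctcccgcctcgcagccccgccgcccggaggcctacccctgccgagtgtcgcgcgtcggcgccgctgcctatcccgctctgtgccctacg
Prmt2: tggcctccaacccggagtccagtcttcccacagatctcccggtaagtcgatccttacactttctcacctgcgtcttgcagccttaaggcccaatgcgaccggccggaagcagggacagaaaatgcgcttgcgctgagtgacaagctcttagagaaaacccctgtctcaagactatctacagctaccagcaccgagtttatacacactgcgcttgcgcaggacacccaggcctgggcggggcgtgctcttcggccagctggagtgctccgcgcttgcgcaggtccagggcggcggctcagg
Kdm4a: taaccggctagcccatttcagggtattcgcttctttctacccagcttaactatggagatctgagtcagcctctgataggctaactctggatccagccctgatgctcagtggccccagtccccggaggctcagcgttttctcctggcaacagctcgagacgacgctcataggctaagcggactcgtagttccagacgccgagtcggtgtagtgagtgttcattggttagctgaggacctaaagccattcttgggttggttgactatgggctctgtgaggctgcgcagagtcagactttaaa
Dnmt1: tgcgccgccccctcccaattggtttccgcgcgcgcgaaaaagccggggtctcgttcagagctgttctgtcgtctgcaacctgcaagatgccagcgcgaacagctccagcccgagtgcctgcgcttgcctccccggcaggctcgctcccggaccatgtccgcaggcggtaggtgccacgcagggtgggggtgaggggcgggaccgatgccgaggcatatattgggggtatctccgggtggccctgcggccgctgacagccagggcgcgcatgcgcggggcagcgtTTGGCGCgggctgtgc

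With the start as position 1, Prmt1 held 1 match that began at position -215, and the printed Dnmt1 window 1 that began at position 35. The other 2 windows of Dnmt1 held none. Prmt5, Hdac2, Prmt2 and Kdm4a held none. Matches also lay in windows of Ezh2, Kmt5a, Kmt5c, Kat14, Sirt4 and Sirt6, which are not shown. In all, 65 of the 77 enzymes had 92 windows in the table, and 8 of the 92 (8.70%) held a match, compared with 9.86% of 18109 windows of measured genes and 6.81% of all 32851 windows. The enzymes' windows were rich in CpG: 72 of 92 (78.3%) had an observed over expected CpG ratio of at least 0.6, against 54.7% of windows of measured genes, and the median ratio was 0.80 against 0.65. A match is a description of letters and says nothing of a factor's binding.

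The arginine methyltransferases as a class had the lowest median log2 change of the 8 classes, -1.03 in GM-DC and -1.11 in GM-TNFa-DC, where the median of all genes was 0.02 and 0.05. Of the 8, 6 were lower on both array numbers in GM-DC and 5 in GM-TNFa-DC, where 32.6% and 30.7% of all genes were so. The 6 include Prmt8, which lay near background, at 3.11 and 3.33 in GM-MPP and 3.02 and 3.32 in GM-DC. Prmt6 also lay at or below the median of all genes. Prmt7, which makes monomethylarginine, had the lowest log2 change of all 77 enzymes in GM-DC, yet it did not pass. Its level was 8.25 and 8.18 in GM-MPP, 6.96 and 5.72 in GM-DC and 7.03 and 5.41 in GM-TNFa-DC. The groups did not overlap, but the number-2 dendritic cell arrays lay more than 1 below the number-1 arrays, and the log2 change was -1.87 ± 0.63 in GM-DC (adjusted p = 0.171) and -2.00 ± 0.63 in GM-TNFa-DC (adjusted p = 0.127). Prmt3, which methylates a ribosomal protein, showed the same form, with 8.27 and 8.08 in GM-MPP, 7.18 and 6.22 in GM-DC and 6.79 and 5.97 in GM-TNFa-DC (log2 changes -1.48 ± 0.42 and -1.79 ± 0.42, adjusted p = 0.120 and 0.0656). The other 3 members had log2 changes between -0.71 and 0.11 and were not called.

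**Figure D2:**
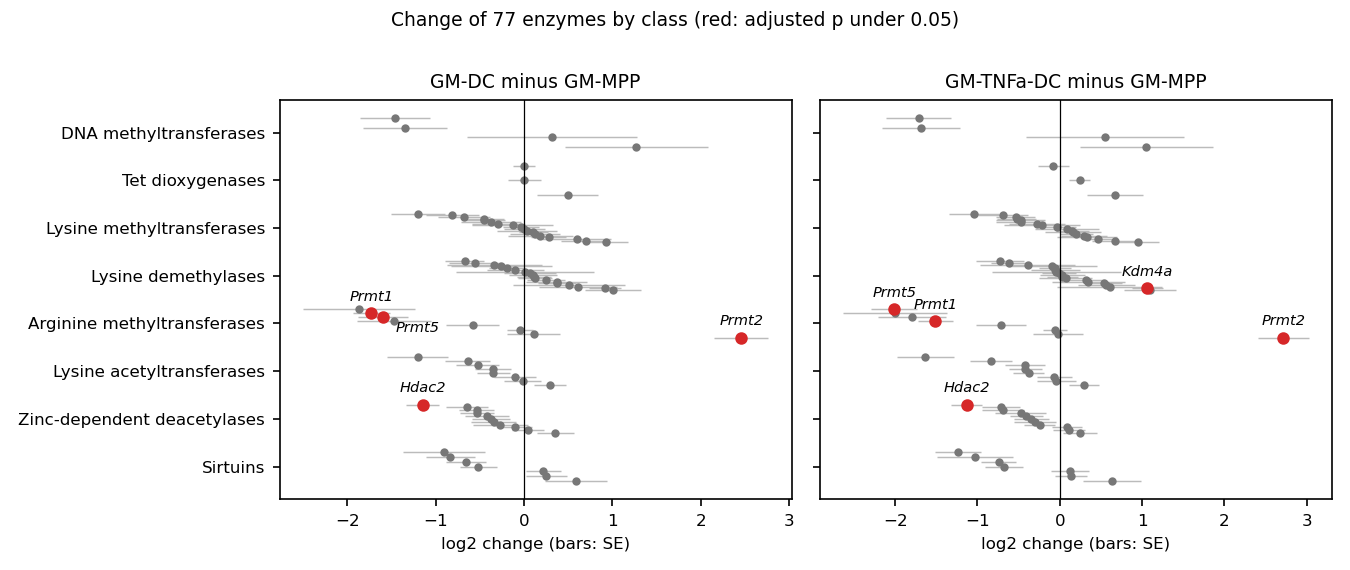
log2 change against GM-MPP (x axis) of the 77 enzymes in rows by class, in GM-DC (left) and GM-TNFa-DC (right); points are fitted changes, bars their standard errors, and red points passed an adjusted p of 0.05. Red points lie in the arginine methyltransferases (Prmt1, Prmt5, Prmt2), at Hdac2 and, on the right, at Kdm4a.

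Among the 11 zinc-dependent deacetylases, Hdac2 was the only one called in either comparison. The class median was -0.37 in GM-DC and -0.34 in GM-TNFa-DC, with 7 and 8 of 11 lower on both numbers. Hdac1, the close relative of Hdac2 in the same complexes, stood at 9.41 and 9.21 in GM-MPP, 8.83 and 9.05 in GM-DC and 8.85 and 9.08 in GM-TNFa-DC, with log2 changes of -0.37 ± 0.21 and -0.34 ± 0.21. Its groups did not overlap either, though the gap was small. Hdac3, the catalytic subunit of the NCoR complex, went from 8.16 and 8.02 to 7.46 and 7.65 in GM-DC and 7.70 and 7.67 in GM-TNFa-DC (-0.54 ± 0.20 and -0.41 ± 0.20, adjusted p = 0.198 and 0.270). The class II enzymes Hdac4, Hdac5 and Hdac7, which shuttle between nucleus and cytoplasm, had log2 changes between -0.53 and -0.24, none called. Hdac9 and Hdac11 were dim, at or below the median of all genes, as were Hdac8 and Hdac10, and a dim gene's change is compressed by background.

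Ezh1 and Ezh2 are alternative catalytic subunits of Polycomb repressive complex 2, which methylates lysine 27 of histone H3. Their values differed from GM-MPP in opposite directions, though neither passed the test. Ezh2 stood at 9.06 and 8.85 in GM-MPP, 7.72 and 7.77 in GM-DC and 8.31 and 7.52 in GM-TNFa-DC, with log2 changes of -1.21 ± 0.31 (adjusted p = 0.0951) and -1.04 ± 0.31 (adjusted p = 0.109). Ezh1 stood at 7.18 and 7.48 in GM-MPP, 8.35 and 8.17 in GM-DC and 8.50 and 8.07 in GM-TNFa-DC, with log2 changes of 0.93 ± 0.25 (adjusted p = 0.104) and 0.95 ± 0.25 (adjusted p = 0.0819). For both genes the progenitor arrays lay apart from all 4 dendritic cell arrays. All 4 probe sets of Ezh1 were higher in either comparison, but the dimmer ones, at levels of 2.91 to 3.28, lay near background. Arrays did not overlap for 17 enzymes higher and 32 lower in GM-DC, where 28.3% of all genes were so higher and 27% lower. In GM-TNFa-DC this held for 17 higher and 31 lower, against 31.6% and 26.1% of all genes.

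Of the 18 lysine methyltransferases none was called, and the class medians of -0.02 in GM-DC and 0.03 in GM-TNFa-DC were so close to 0 that their sign turned with another scaling. Kmt2a, the enzyme known as MLL1 that methylates lysine 4 of histone H3, had log2 changes of 0.13 ± 0.28 and 0.29 ± 0.28. Setd2, which trimethylates lysine 36 of histone H3, had -0.45 ± 0.23 and -0.52 ± 0.23. Of the 18 lysine demethylases, Kdm4a was called in GM-TNFa-DC and none in GM-DC, and the class medians were 0.11 and 0.03, the second of which also turned sign. Kdm3a, a demethylase of lysine 9 of histone H3, went from 8.32 and 8.35 in GM-MPP to 9.66 and 9.01 in GM-DC and 9.71 and 9.15 in GM-TNFa-DC (log2 changes 1.01 ± 0.31 and 1.10 ± 0.31, adjusted p = 0.145 and 0.102). All dendritic cell arrays were above the progenitors, the number-1 arrays more so. Kdm6b, an inflammation-linked demethylase of lysine 27, overlapped between groups, with 7.97 and 9.47 in GM-MPP, 8.03 and 8.74 in GM-DC and 8.44 and 8.83 in GM-TNFa-DC. The 2 progenitor arrays of Kdm6b differed by 1.50, more than any difference between its group means. Kdm1a, known as LSD1, had log2 changes of 0.10 ± 0.28 and 0.03 ± 0.28.

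The 8 lysine acetyltransferases had class medians of -0.35 and -0.40, with 6 and 5 lower on both numbers and none called. Kat2a, the GCN5 subunit of the SAGA complex, stood at 8.21 and 7.66 in GM-MPP, 7.14 and 6.32 in GM-DC and 6.36 and 6.24 in GM-TNFa-DC. The groups did not overlap, and the log2 change was -1.20 ± 0.34 in GM-DC (adjusted p = 0.122) and -1.64 ± 0.34 in GM-TNFa-DC (adjusted p = 0.0519). A second probe set of Kat2a fell less, from 7.35 and 7.13 in GM-MPP to between 6.72 and 6.95 on the dendritic cell arrays. Another fell from 7.21 and 6.68 to between 5.53 and 5.82. The Kat2a paralogue Kat2b was level, between 8.04 and 8.29 on all 6 arrays. Sirtuins are deacetylases and deacylases that depend on NAD. None of the 7 was called. Sirt3, the main mitochondrial deacetylase, was at 7.75 and 8.22 in GM-MPP, 7.05 and 7.26 in GM-DC and 6.52 and 6.99 in GM-TNFa-DC (log2 changes -0.83 ± 0.28 and -1.24 ± 0.28, adjusted p = 0.163 and 0.0597). Sirt1 had -0.91 ± 0.47 and -1.03 ± 0.47, and the mainly cytoplasmic Sirt2 had 0.59 ± 0.35 and 0.64 ± 0.35. Sirt6 lay between 6.29 and 6.66 on all 6 arrays.

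All 4 DNA methyltransferases differed between the 2 dendritic cell arrays of a group, and none was called against GM-MPP. Dnmt1 stood at 10.11 and 9.94 in GM-MPP, 8.23 and 9.13 in GM-DC and 7.77 and 8.91 in GM-TNFa-DC. All dendritic cell arrays lay below the progenitors, with the number-1 arrays the lowest, and the log2 change was -1.35 ± 0.47 in GM-DC (adjusted p = 0.182) and -1.69 ± 0.47 in GM-TNFa-DC (adjusted p = 0.0984). Dnmt3a stood at 7.07 and 6.84 in GM-MPP, 9.25 and 7.20 in GM-DC and 8.84 and 7.17 in GM-TNFa-DC. It was thus 2.18 above its same-numbered progenitor array on GM-DC 1 but 0.36 above on GM-DC 2, and the pooled log2 change was 1.27 ± 0.81 (adjusted p = 0.432). Dnmt3b was lower on all dendritic cell arrays, from 6.67 and 6.68 in GM-MPP to 5.75 and 4.69 in GM-DC and 5.27 and 4.65 in GM-TNFa-DC (log2 changes -1.46 ± 0.39 and -1.71 ± 0.39, adjusted p = 0.109 and 0.0639), and these levels are close to background. Dnmt3l, a cofactor of Dnmt3a and Dnmt3b without methyltransferase activity of its own, lay below the progenitors on the number-1 dendritic cell arrays and above them on number 2. Its levels, from a single probe set, were 5.75 and 5.43 in GM-MPP, 4.85 and 6.95 in GM-DC and 4.95 and 7.32 in GM-TNFa-DC. The number-1 dendritic cell values are close to background, near the array medians of 4.67 to 4.77.

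**Figure D3:**
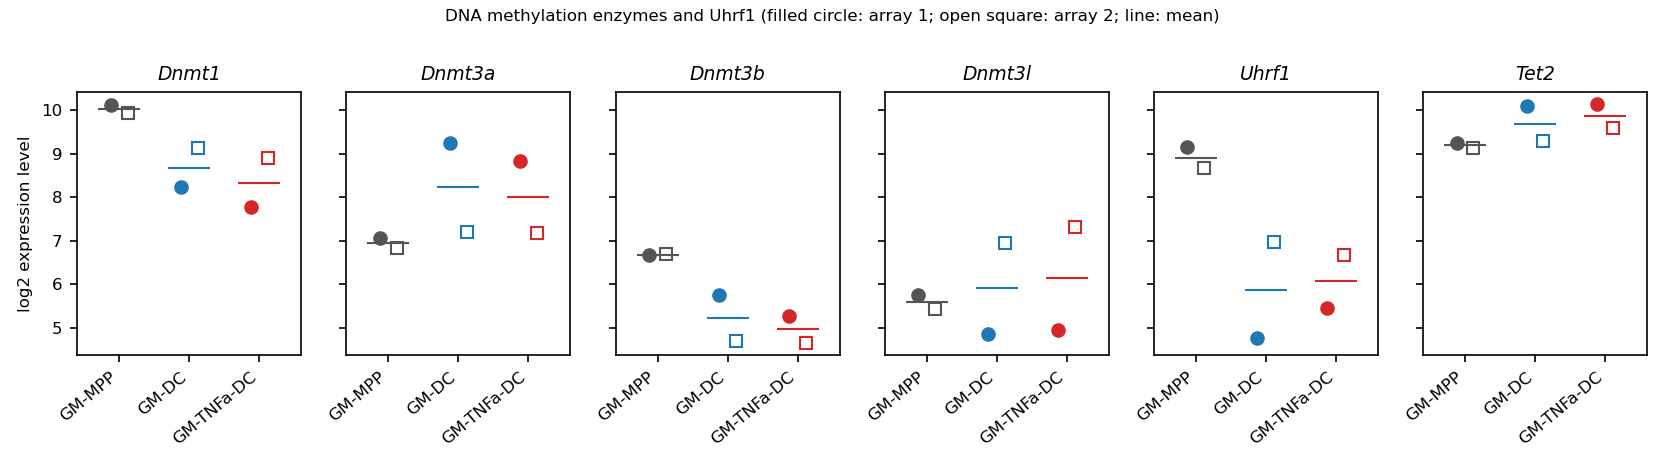
log2 expression level (y axis) of Dnmt1, Dnmt3a, Dnmt3b, Dnmt3l, Uhrf1 and Tet2 on the 6 arrays, by group; filled circles are arrays numbered 1, open squares arrays numbered 2, and lines the means of 2 arrays. In GM-DC and GM-TNFa-DC the number-1 arrays are higher for Dnmt3a, Dnmt3b and Tet2 and lower for Dnmt1, Dnmt3l and Uhrf1.

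Uhrf1, the guide of Dnmt1, stood at 9.15 and 8.68 in GM-MPP, 4.75 and 6.98 in GM-DC and 5.45 and 6.68 in GM-TNFa-DC. Like Dnmt1 it was lower on every dendritic cell array and lowest on the number-1 arrays, and its log2 change of -3.05 ± 0.79 in GM-DC did not pass (adjusted p = 0.0991). Tet2 was at 9.25 and 9.14 in GM-MPP, 10.09 and 9.29 in GM-DC and 10.14 and 9.60 in GM-TNFa-DC, with log2 changes of 0.49 ± 0.34 and 0.67 ± 0.34 (adjusted p = 0.471 and 0.289). Tet1 and Tet3 were at or below the median of all genes, with log2 changes between -0.08 and 0.25.

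Genes of the cell cycle, which mark dividing cells, moved with these groups and numbers. The median level of 28 measured cell cycle genes was 9.94 and 9.51 in GM-MPP, 7.02 and 8.70 in GM-DC and 6.67 and 8.15 in GM-TNFa-DC. Their summed linear level was 36584 and 26871 in GM-MPP, 6453 and 15094 in GM-DC and 4949 and 11077 in GM-TNFa-DC. All 28 were lower on average in either comparison, of which 1 was called in GM-DC and 3 in GM-TNFa-DC, with median log2 changes of -1.95 and -2.38. The order of the arrays by this list was that of Dnmt1, with progenitors first, then the number-2 and then the number-1 dendritic cell arrays. Their part in the enzymes' values was not tested. In such bulk samples, fewer cells of a type and less RNA per cell cannot be told apart.

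Setting array number 2 against number 1 over the 4 dendritic cell arrays, with treatment as a term, asks how far arrays of one group differed. Here 3 enzymes were called higher and 12 lower on number 2 (limma adjusted p under 0.05), where 6.41% of all genes were higher and 5.41% lower (11.8% in either direction). The labels do not say what the numbers stand for. The fit leaves 1 residual degree of freedom, so its errors lean on the spread shared across genes. Each number was read from the GM-DC and the GM-TNFa-DC array that carried it, so the errors measure how alike the number difference was in both treatments. Whether same-numbered arrays came from separate cultures is not in the labels. The errors and p-values therefore may not measure how such a difference varies between cultures. The 3 higher genes were Dnmt3l (2.23 ± 0.16, adjusted p = 0.00360), Dnmt1 (1.02 ± 0.14, adjusted p = 0.0165) and Setd5, a SET domain protein (0.73 ± 0.14, adjusted p = 0.0370). In GM-MPP the differences between number 2 and number 1 were -0.33 for Dnmt3l, -0.17 for Dnmt1 and 0.30 for Setd5. All 3 probe sets of Dnmt1 were higher on the number-2 dendritic cell arrays. Of 28 cell cycle genes 26 were called higher on number 2, of 16 dendritic cell markers 14 were called lower, and of 11 neutrophil markers 3 were called higher and 5 lower. Of 15 macrophage markers 5 were called higher and 4 lower, from 4.85 in Cd14 to -3.43 in Mrc1. Summed linear levels of 11 erythroid and megakaryocyte markers were 548 and 882 on the number-1 dendritic cell arrays. On number 2 they were 8497 and 8407. These sums did not stand for the whole list: the median log2 difference was 0.19, with 7 of the 11 higher and 4 lower. Their median level was 4.61 and 4.79 on number 1 against 5.51 and 5.79 on number 2. Only 2 were at least 2-fold higher, 2 were called higher, and the platelet chemokine Ppbp differed by 6.22. Of 10 progenitor markers 2 were called higher and 1 lower, and the differences ran from 1.80 in Erg to -3.29 in Kit. Cd14, Mrc1, Ppbp, Erg and Kit were named after their values were seen. The part of all these markers in the enzymes' differences was not tested.

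**Figure D4:**
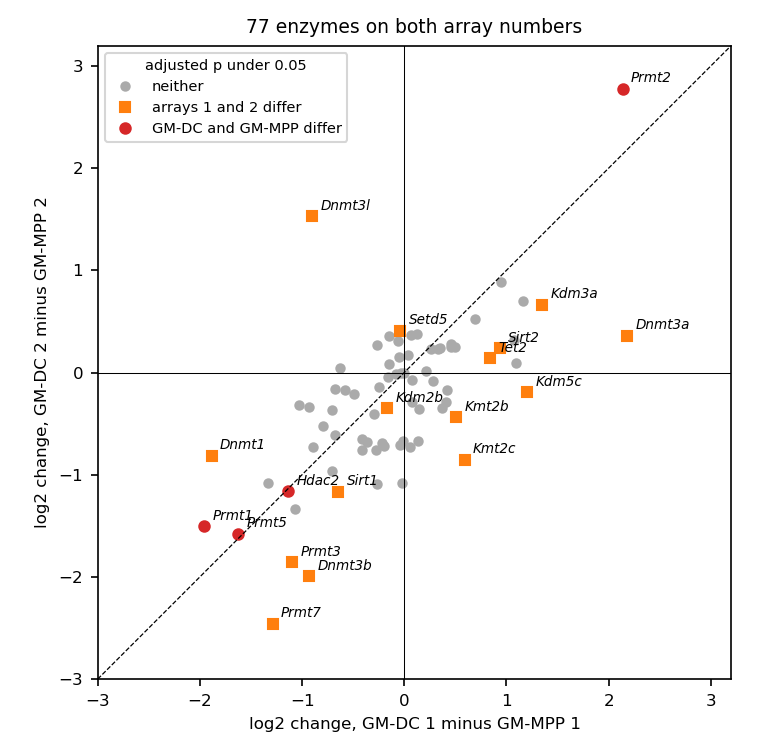
log2 change of GM-DC against GM-MPP for the 77 enzymes on array number 1 (x axis) and array number 2 (y axis); red circles passed the test of GM-DC against GM-MPP, orange squares that of number 2 against number 1 over the 4 dendritic cell arrays, and the dashed line marks equal change. Prmt1, Prmt5, Prmt2 and Hdac2 lie near the line, as the error of their test requires, and Dnmt3a lies at 2.18 and 0.36 and Dnmt3l at -0.90 and 1.53.

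The largest difference among the 12 lower genes was in Dnmt3a, at -1.86 ± 0.16 (adjusted p = 0.00507), 3.62-fold lower on number 2. All 5 probe sets of Dnmt3a were lower there, and the difference was -2.05 in GM-DC, -1.66 in GM-TNFa-DC and -0.23 in GM-MPP. Kdm5c, an X-linked demethylase of lysine 4 of histone H3, followed at -1.44 ± 0.14 (adjusted p = 0.00612). Its levels were 7.41 and 7.38 in GM-MPP, 8.61 and 7.19 in GM-DC and 8.73 and 7.27 in GM-TNFa-DC, and 8 of 9 probe sets were lower on number 2 in both treatments. The other, at levels of 2.28 to 2.65, was near background. Only the number-1 dendritic cell arrays stood apart from the rest, and GM-DC against GM-MPP gave 1.20 on number 1 and -0.19 on number 2. Prmt7 (-1.43 ± 0.17), Kdm2b (-1.16 ± 0.22), Kmt2c (-0.96 ± 0.14), Sirt1 (-0.94 ± 0.15), Prmt3 (-0.88 ± 0.15), Dnmt3b (-0.84 ± 0.17), Sirt2 (-0.70 ± 0.13), Tet2 (-0.67 ± 0.13), Kmt2b (-0.67 ± 0.14) and Kdm3a (-0.60 ± 0.13) made up the 12, with adjusted p between 0.0110 and 0.0459. With probe sets averaged per gene in place of the brightest, 8 of the 15 calls were left, and Dnmt3b, Kmt2c, Prmt3, Prmt7, Setd5, Tet2 and Kdm3a were lost. Kdm3a has a single probe set, so its levels were unchanged and only its error and adjusted p, which draw on other genes, moved.

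Kdm6a, an X-linked demethylase of lysine 27, split widest within GM-TNFa-DC. It stood at 7.83 and 7.89 in GM-MPP, 8.19 and 7.55 in GM-DC and 9.05 and 6.59 in GM-TNFa-DC, a difference of -1.56 ± 0.43 between numbers that did not pass (adjusted p = 0.0912). Kdm5d, the Y-linked relative of Kdm5c, lay between 6.71 and 7.02 on all 6 arrays, the Y-linked Eif2s3y between 9.02 and 9.17, and Xist between 4.01 and 4.56, below the array medians of 4.67 to 4.77. All 6 arrays thus had the Y-linked signal and dim Xist.

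For the 5 genes called against GM-MPP the number difference was small, which the call itself required, since the error of that test takes in the differences between arrays of a group. The number difference over the dendritic cell arrays was 0.20 ± 0.14 for Prmt1, 0.35 ± 0.22 for Prmt5, -0.06 ± 0.14 for Prmt2, -0.09 ± 0.14 for Hdac2 and -0.03 ± 0.13 for Kdm4a, none called (adjusted p between 0.382 and 0.925). Within number 1 and number 2 the change in GM-DC was -1.96 and -1.50 for Prmt1, -1.62 and -1.58 for Prmt5, 2.14 and 2.78 for Prmt2, and -1.14 and -1.16 for Hdac2. Over the 77 enzymes, 20 were higher and 36 lower on both numbers in GM-DC, and 21 had opposite signs, against 35.5%, 32.6% and 31.9% of all genes. In GM-TNFa-DC 21 were higher, 32 lower and 24 opposite, against 39.1%, 30.7% and 30.2%. A change of at least 2-fold on both numbers was seen in 1 enzyme higher and 7 lower in GM-DC, where 3.65% and 4.07% of all genes passed. In GM-TNFa-DC it was seen in 2 higher and 9 lower, where 3.8% and 5.32% passed. On the mean of both arrays, 3 enzymes were at least 2-fold higher and 9 lower in GM-DC (6.05% and 7.13% of all genes), and 4 higher and 11 lower in GM-TNFa-DC (6.57% and 8.38%). At an unadjusted p under 0.05 there were 5 enzymes higher and 17 lower in GM-DC, where 21.6% of all genes passed in either direction, and 6 higher and 16 lower in GM-TNFa-DC, where 25.1% did.

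Comparing GM-TNFa-DC to GM-DC asks what TNFa added to GM-CSF. None of the 77 enzymes was called, and the percentage of all 18193 genes called was 0 (limma, lowest adjusted p = 1 after rounding). At an unadjusted p under 0.05 there were 410 genes (2.25%), 0 of them among the enzymes. The changes ran from -0.51 in Kmt2e to 0.36 in Setd4, and the median was -0.03 against 0.01 for all genes. Arrays did not overlap for 10 enzymes higher and 5 lower, where 14.9% and 10.6% of all genes were so. The sign was the same on both numbers for 23 higher and 22 lower, and opposite for 32, against 30.9%, 26.3% and 42.8% of all genes. No enzyme reached 2-fold, on the mean (0.379% of all genes higher, 0.363% lower) or on both numbers (0.0715% and 0.0495%).

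**Figure D5:**
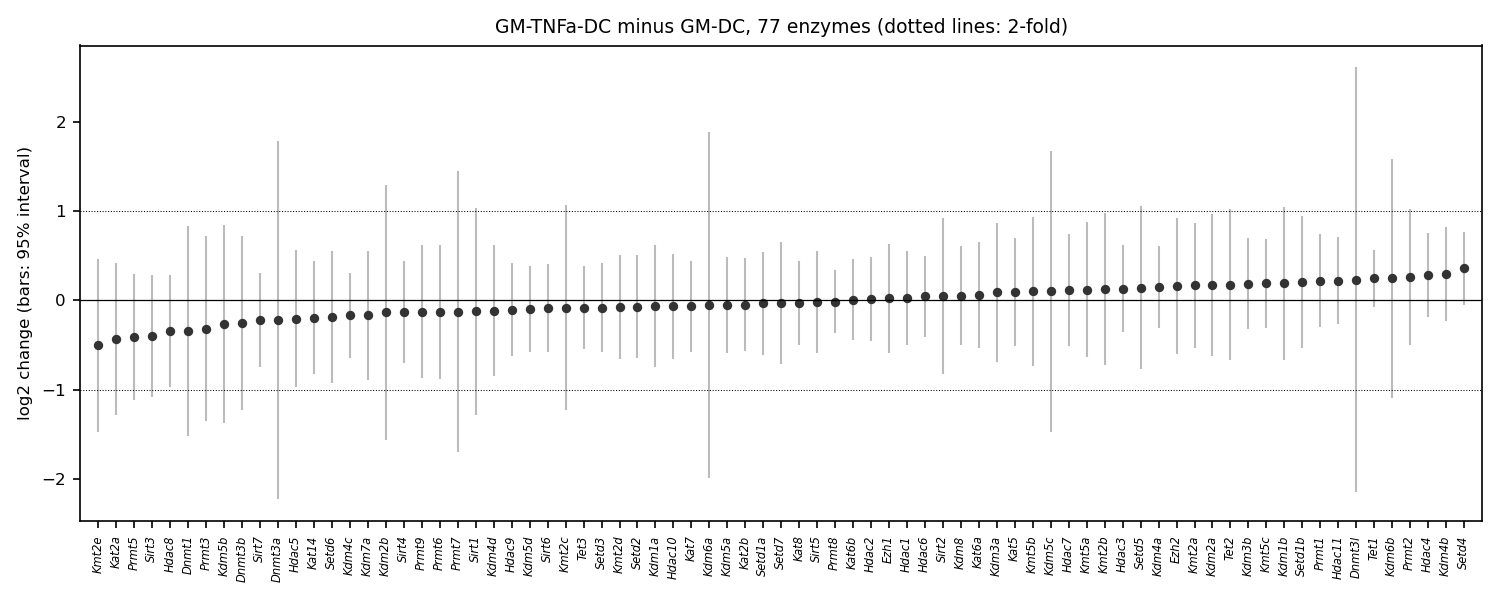
log2 change of GM-TNFa-DC against GM-DC (y axis) for the 77 enzymes in order of size; points are fitted changes, bars 95% intervals, and dotted lines mark 2-fold. The changes lie between -0.51 and 0.36, and every interval includes 0.

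Kmt2e, a relative of the lysine 4 methyltransferases, stood at 10.30 and 9.95 in GM-DC and 10.07 and 9.17 in GM-TNFa-DC, so that its arrays overlapped. The interval of the difference set what this fit could show, with 2 arrays a group and no term for the array number. It ran from -0.45 to 0.49 for Hdac2, from -0.30 to 0.74 for Prmt1 and from -0.50 to 1.02 for Prmt2. The numbers split GM-DC and GM-TNFa-DC alike (correlation 0.806 over 18193 genes), and this fit counted that shared split as error. The treatment difference was not fitted on the dendritic cell arrays alone with a number term. The interval was wider in genes that differed by number, from -2.23 to 1.79 for Dnmt3a, from -2.15 to 2.62 for Dnmt3l and from -1.99 to 1.89 for Kdm6a. Within number 1 and number 2 the differences were -0.41 and -0.03 for Dnmt3a, 0.10 and 0.37 for Dnmt3l, and 0.86 and -0.96 for Kdm6a. For Kdm6b, which responds to inflammatory signals in macrophages, the difference was 0.25 with an interval from -1.09 to 1.59. Setd4 was named after its value was seen, as the upper end of the range.

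Genes that work with these enzymes were followed in lists. The 11 trithorax complex partners, which join the Kmt2 and Setd1 methyltransferases in their complexes, were all lower on both numbers in either comparison, with median log2 changes of -0.80 and -0.83. Of all genes 32.6% and 30.7% were lower on both numbers. None of the 11 was called in GM-DC, and 4 were called lower in GM-TNFa-DC (4.26% of all genes), namely Psip1 (-1.81 ± 0.29), Dpy30 (-1.62 ± 0.28), Wdr5 (-1.24 ± 0.21) and Hcfc1 (-1.14 ± 0.24), with adjusted p between 0.0269 and 0.0489. Hcfc1 was named after its value was seen, as the fourth of the 4. For the lysine methyltransferases themselves the class medians were -0.02 and 0.03, as given above, and the difference between the lists was not tested. Of 24 Polycomb partners, 0 were called in GM-DC and 1 lower in GM-TNFa-DC, the histone-binding protein Rbbp7 (-1.16 ± 0.21, adjusted p = 0.0377). Of 16 DNA methylation partners, the methyl-CpG-binding protein Zbtb4 rose in both comparisons, by 2.03 ± 0.28 and 2.36 ± 0.28 (adjusted p = 0.0246 and 0.0146), from 4.31 and 4.64 in GM-MPP, which is near background, to between 6.18 and 6.99. Idh2, a mitochondrial dehydrogenase that makes the cofactor of Tet and Jumonji enzymes, fell in GM-TNFa-DC by 1.27 on the log2 scale (adjusted p = 0.0413).

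Among 9 other demethylases and deiminases, Riox1, a ribosomal oxygenase also described as a histone demethylase, fell in both comparisons, with log2 changes of -2.06 ± 0.25 and -2.15 ± 0.25 (adjusted p = 0.0197 and 0.0144). Its levels were 8.44 and 8.90 in GM-MPP and between 6.44 and 6.79 on the dendritic cell arrays. Of 22 other acetyltransferases and partners, Ing3 fell in GM-TNFa-DC (-1.01 ± 0.19, adjusted p = 0.0413) and no gene was called in GM-DC. None of 16 other lysine and arginine methyltransferases and none of 20 deacetylase corepressors passed in either comparison. Their median log2 changes were -0.24 and -0.27 for the methyltransferases, and -0.25 and -0.21 for the corepressors.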

How the data were processed

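Gene expression was measured on 6 Affymetrix arrays, 2 for each of 3 groups. RNA was purified on columns with DNase digestion and 1 microgram of it labelled, per the labels' protocols. Per the submitters' processing notes the authors used RMA, which corrects background, quantile-normalizes arrays and summarises probes; no version of it is named there. The deposited values were taken as log2 expression levels from their range of 1.89 to 14.4. The number of arrays limits the precision, and no detection call was used.

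Of 45101 probe sets, 34945 carried 1 symbol in the platform's annotation, 932 several, 9160 none listed and 64 were controls. For 34741 the Entrez identifier matched a RefSeq table of GRCm38.p6. Each of 18193 genes was read from its brightest single-symbol probe set (mean of 6 arrays). The 77 enzymes had 188 probe sets (50 enzymes had more than 1), and 12 enzymes lay at or below the median gene level of 5.73 and were kept.

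Differences were fitted with limma 3.58.1 in R 4.3.3 (3 groups, intensity trend, 3 residual degrees of freedom) and p-values adjusted by Benjamini-Hochberg, with calls under 0.05. The number comparison used the 4 dendritic cell arrays. Errors after ± are standard errors. The fit was tested on simulated data with independent errors on each array. That test did not cover the split by number that the dendritic cell arrays share. The enzymes and partner lists were chosen with earlier results of these data known. Named were called enzymes, the largest change of each class, a fixed panel of enzymes, up to 3 called partners of each list and sex chromosome genes; the text gives part of them. Alternatives were 2 scalings, 3 probe set or dim gene rules, 2 priors, symbol updating, arrays used, a number block, left-out arrays and a 2-fold minimum. Python 3.11.15 and matplotlib 3.10.9 prepared tables and plots. The promoter table lacked 12 enzymes.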

Additional observations from a re-analysis of the deposited data

How the results depend on the processing

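With the array number as a replicate block, 7 enzymes were called in GM-DC against GM-MPP (2 higher, 5 lower) in place of 4, and 11 in GM-TNFa-DC against GM-MPP (2 higher, 9 lower) in place of 5. Over all genes the block gave 627 higher and 849 lower in place of 340 and 479, and 850 and 1210 in place of 504 and 775. The arrays share only a number: deviations of same-numbered arrays from their group means correlated at 0.105 between GM-MPP and GM-DC, 0.0719 between GM-MPP and GM-TNFa-DC and 0.806 between GM-DC and GM-TNFa-DC over 18193 genes. For Dnmt3a in GM-TNFa-DC against GM-DC the block took the standard error from 0.81 to 0.47, with no call. Leaving out 1 array in turn gave 0 to 3 enzymes in GM-DC and 0 to 5 in GM-TNFa-DC against GM-MPP, with 20 to 346 genes higher and 30 to 371 lower in GM-DC and 37 to 303 higher and 51 to 457 lower in GM-TNFa-DC. Without dim genes, 8 enzymes were called in GM-TNFa-DC against GM-MPP (2 higher, 6 lower). In number 2 against number 1, the mean of probe sets gave 8 (2 higher, 6 lower) and a 2-fold minimum 6 (2 higher, 4 lower) in place of 15. Median centring gave 21 there (3 higher, 18 lower), and 1165 genes higher and 1566 lower in place of 1166 and 984. A second quantile normalization gave 2 enzymes higher and 3 lower in GM-DC against GM-MPP, with Kdm4a called, and a median of 0.04 over the enzymes in GM-TNFa-DC against GM-MPP in place of -0.06. Prmt1, Prmt2 and Prmt5 were called in both comparisons under each of the 9 alternatives that left out no single array and set no fold minimum. Prmt1 and Prmt5 each had a single probe set, so averaging probe sets or leaving out a type of them did not alter their levels. With only the 4 arrays compared, Hdac2 (adjusted p = 0.0565 and 0.0661) and Kdm4a (0.0707 in GM-TNFa-DC) were not called. GM-TNFa-DC against GM-DC gave 0 under every alternative run. Causes of these shifts were not tested. Having 2 arrays a group limits the smallest change that could be called, and levels near background understate it.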

Other observations

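Several genes that work with these enzymes were called between number 2 and number 1 of the dendritic cell arrays and in neither comparison with GM-MPP. Padi4, the deiminase that converts histone arginine to citrulline in neutrophils, stood at 8.68 and 9.44 in GM-MPP, 4.51 and 8.16 in GM-DC and 4.09 and 7.37 in GM-TNFa-DC. All dendritic cell arrays lay below the progenitors, the number-1 arrays by far the lowest, and the number difference was 3.46 ± 0.17 (limma adjusted p = 0.0019). Hells, a helicase needed for normal DNA methylation, was higher on number 2 by 2.33 ± 0.25 (adjusted p = 0.0090), and Uhrf1 by 1.73 ± 0.27 (adjusted p = 0.0213). The Polycomb proteins Cbx6 and Phf19 were higher by 0.93 ± 0.15 and 0.89 ± 0.15, whereas Cbx2 was lower (-1.01 ± 0.18).

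Gadd45b, a stress gene linked to DNA demethylation, was lower on number 2 (-1.34 ± 0.18, adjusted p = 0.0162). It stood at 8.38 and 8.29 in GM-MPP, 9.29 and 8.25 in GM-DC and 10.46 and 8.82 in GM-TNFa-DC. The acetyltransferase Crebbp (-0.87 ± 0.15), the methyltransferase Ehmt1 (-0.63 ± 0.13) and the NuRD remodeller Chd4 (-0.73 ± 0.14) were also lower on number 2. Hr, a demethylase of lysine 9, differed by -1.71 ± 0.26, with the 2 number-1 dendritic cell arrays at 6.96 and 5.96 and the other 4 arrays between 4.41 and 4.77.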
